A study of Mus musculus with 3 samples.

Results

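The genes of class II antigen presentation were followed in mouse bone marrow by single-cell RNA sequencing. The 10 genes were chosen by symbol: Cd74, H2-Aa, H2-Ab1, H2-Eb1, H2-DMa, H2-DMb1, H2-DMb2, H2-Oa, H2-Ob and Ciita, out of 32285 genes in the count tables. All 10 had unique molecular identifiers (UMIs, the counted RNA tags) in each of the 3 libraries. LSK cells lack mature lineage antigens and carry Sca-1 and Kit, a gate rich in stem cells and early multipotent cells. LK cells are lineage-negative and carry Kit, a gate of mostly committed progenitors, and TBM is total bone marrow. Whether cells with Sca-1 were left out of the LK gate is not given in the labels, which bears on each difference between LSK and LK. The marrow came from leg, hip and spine bones, and the antibodies for lineage depletion were against Ter119, CD45R, CD8a, CD5, CD11b, Ly-6C and Ly-6G. Strain, genotype, age, sex and number of mice are not in the labels, which name no treatment.

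Class II molecules are heterodimers of an alpha and a beta chain that show peptides from endocytosed proteins to CD4+ T cells. In the endoplasmic reticulum the new dimer binds the invariant chain, and in endosomes H2-DM swaps the remaining invariant chain peptide for other peptides, a step that H2-DO restrains. Dendritic cells, B cells and macrophages are the classical expressing cells, and the coactivator CIITA switches the genes on by joining factors that sit on conserved X and Y boxes of their promoters.

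The promoters of 6 of the 10 genes are shown because they share the letters of the Y box at a similar place, although the genes differ widely in level below. Each stretch reads 5′ to 3′ on the gene's own strand, from the RefSeq promoter table of build GRCm38.p6, which matched 7 of the 10 genes. Capitals mark the Y box letters TGATTGG and, farther left where found, the X box letters CAACNGATG or CNGATGATG, which overlap.
H2-Aa: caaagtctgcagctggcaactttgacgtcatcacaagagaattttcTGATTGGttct
H2-Eb1: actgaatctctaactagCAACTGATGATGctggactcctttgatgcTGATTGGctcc
H2-DMb1: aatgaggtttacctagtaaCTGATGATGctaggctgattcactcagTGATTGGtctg
H2-DMb2: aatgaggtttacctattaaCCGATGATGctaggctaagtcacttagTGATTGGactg
H2-Oa: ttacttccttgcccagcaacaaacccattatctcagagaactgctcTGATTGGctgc
H2-Ob: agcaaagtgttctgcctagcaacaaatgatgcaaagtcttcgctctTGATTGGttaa

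The stretches are chr17:34287863-34287919 (minus strand) for H2-Aa, chr17:34305760-34305816 for H2-Eb1, chr17:34153082-34153138 for H2-DMb1, chr17:34145111-34145167 for H2-DMb2, chr17:34092288-34092344 for H2-Oa and chr17:34238800-34238856 for H2-Ob, all but H2-Aa on the plus strand. The Y box letters begin 50 bases before the annotated start in H2-Aa, 61 in H2-Eb1, 63 in H2-DMb1, 92 in H2-DMb2, 45 in H2-Oa and 59 in H2-Ob. The X box letters CNGATGATG begin 26 bases before the Y box letters in H2-Eb1 and 27 before them in H2-DMb1 and H2-DMb2. Searched on both strands of all 32851 promoter windows, the longer Y box core CTGATTGG was found in 4.10% of windows and in H2-Aa, H2-Eb1 and H2-Oa. The X box core CAACNGATG was found in 0.566% of windows and, among the 8 windows of class II genes, in H2-Eb1 alone. The shorter forms TGATTGG and CNGATGATG were chosen after these promoters had been read, and occur in 7.82% and 0.956% of windows. Neither window of H2-DMa held any of the 4.

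H2-Oa, H2-DMa, H2-DMb2, H2-DMb1, H2-Ob, H2-Ab1, H2-Aa and H2-Eb1 lie together on chromosome 17, between 34092340 and 34316674 of GRCm38 (224 kb), all on the plus strand except H2-Aa. Cd74 lies on chromosome 18 (60803848 to 60812652, plus strand) and Ciita on chromosome 16 (10480059 to 10528418, plus strand). H2-DMa (34119541 to 34139101) overlaps Brd2 on the opposite strand and CR974462.3 on its own strand. Whether counting used strand is not given in the sources used here. H2-DMb1 and H2-DMb2 are copies of one beta chain gene. Their longest coding transcripts, of 1404 and 1483 bases, are identical at 1153 of 1668 alignment columns (69.1%). The last 300 bases, where a 3' kit reads, are identical at 208 of 322 columns (64.6%). Both shares count gap columns as differences, so identity where bases pair is higher.

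After filtering, the libraries held 1067 LSK, 3461 LK and 4217 TBM cells, with 11836820, 49936180 and 21958139 UMIs and medians of 9688, 13683 and 3347 UMIs per cell. The labels state 1070, 3441 and 3984 sorted cells, and the files hold 1091, 3560 and 4317 barcodes. LSK shared 6 barcodes with LK and 6 with TBM, and LK shared 25 with TBM. Levels are UMIs of a gene per 1000000 UMIs of the same library or class of cells (CPM), and brackets give 95% intervals that cover counting error only. Each gate is 1 library, so no difference between gates could be tested, and cells are not replicates. The tags are read at the 3' end, so levels are compared between cells for the same gene and not between genes. Fewer expressing cells and less RNA per cell cannot be told apart in a library sum. The genes of the gates followed the labels. Kit stood at 81.3 CPM in LSK cells, 34.4 CPM in LK cells and 7.61 CPM in TBM cells, and Ly6a, which encodes Sca-1, at 101 CPM, 7.75 CPM and 30.9 CPM.

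The invariant chain gene and the class II chain genes were far higher in LSK than in LK, and highest in TBM. Cd74, which encodes the invariant chain, stood at 241 CPM in LSK cells (233 to 250.3), 7.73 CPM in LK cells (6.98 to 8.54) and 2761 CPM in TBM cells (2739 to 2783). The 3 intervals do not overlap, and the log2 ratio of LSK over LK was 4.96 (4.81 to 5.12). H2-Aa, the alpha chain of the I-A molecule, stood at 104 CPM in LSK cells, 5.79 CPM in LK cells and 533 CPM in TBM cells. H2-Eb1, the beta chain of the I-E molecule, stood at 54.8 CPM in LSK cells, 2.58 CPM in LK cells and 348 CPM in TBM cells. H2-Ab1, the beta chain of I-A, had a smaller gap between the progenitor gates, with 154 CPM in LSK cells (147 to 162), 44.6 CPM in LK cells (42.8 to 46.5) and 553 CPM in TBM cells (543 to 563). The log2 ratios of LSK over LK were 4.17 for H2-Aa (3.98 to 4.36), 4.41 for H2-Eb1 (4.13 to 4.69) and 1.79 for H2-Ab1 (1.70 to 1.88). H2-Ab1 thus differed between LSK and LK by less than Cd74, H2-Aa and H2-Eb1, beyond the counting error of each ratio.

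The genes of peptide editing were flatter. H2-DMa, the alpha chain of H2-DM, stood at 223 CPM in LSK cells (214 to 232), 179 CPM in LK cells (175 to 182) and 129 CPM in TBM cells (124 to 133). TBM, the highest library for Cd74, was thus the lowest for H2-DMa in CPM. H2-DMb1, one of the beta chains of H2-DM, stood at 67.9 CPM in LSK cells, 45.5 CPM in LK cells and 48.7 CPM in TBM cells, with overlapping intervals in LK (43.6 to 47.4) and TBM (45.8 to 51.7). H2-DMb2, the other beta chain gene, followed a different order and was close to absent from both progenitor gates. It had 32 UMIs in LSK, 117 in LK and 2329 in TBM, which is 2.70 CPM (1.85 to 3.82), 2.34 CPM (1.94 to 2.81) and 106 CPM. H2-Oa, the alpha chain of H2-DO, stood at 29.6 CPM in LSK cells, 16.8 CPM in LK cells and 34.9 CPM in TBM cells, and H2-Ob, its beta chain, at 27.0 CPM in LSK cells, 11.4 CPM in LK cells and 52.6 CPM in TBM cells. Under size factors, which lower every log2 ratio of LSK over LK by 0.39, H2-DMa and H2-DMb2 took the opposite sign, at -0.07 and -0.18, against 0.32 and 0.21 with CPM. So did H2-DMb1 for LSK over TBM, where the shift was -0.72, at -0.24 against 0.48. For LK over TBM the shift was -0.34 and none of the 10 genes took the opposite sign. The gap of H2-DMa to TBM shrank with size factors. Its log2 ratio was 0.07 for LSK over TBM, against 0.79 with CPM, and 0.14 for LK over TBM, against 0.48.

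Ciita, the coactivator, was rare everywhere and followed the chain genes in order. It had 28 UMIs in LSK, 8 in LK and 364 in TBM, or 2.37 CPM (1.57 to 3.42), 0.160 CPM (0.0692 to 0.316) and 16.6 CPM (14.9 to 18.4). A total of 25 LSK cells, 8 LK cells and 281 TBM cells held a Ciita UMI. A cell without a Ciita UMI is therefore not shown to lack the transcript at this depth.

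**Figure D1:**
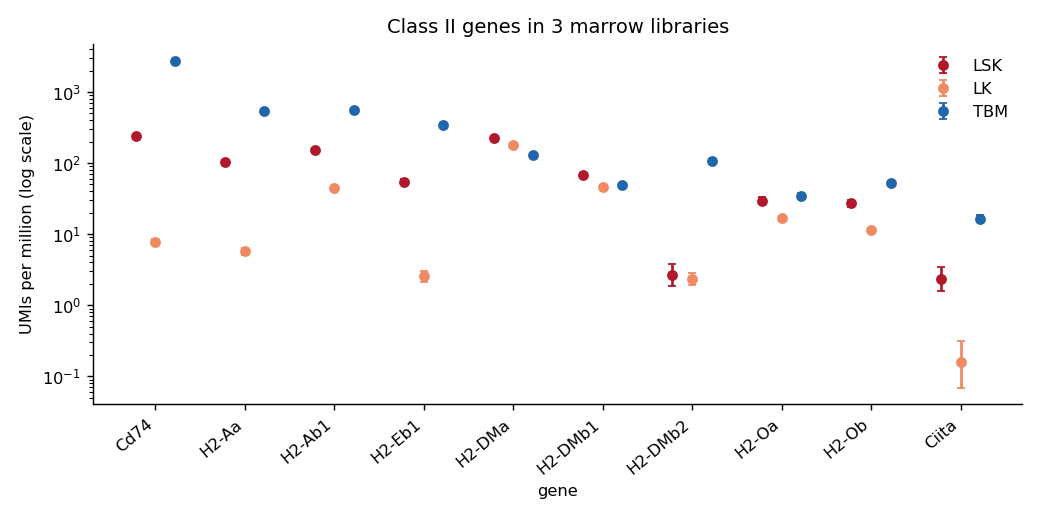
Level of each class II gene in CPM on a log axis, with 1 point per library (LSK, LK, TBM) and bars for the 95% counting interval. Cd74 spans 7.73 CPM in LK to 2761 in TBM, while H2-DMa stays between 129 and 223 CPM in all 3 libraries.

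Set against all genes measured, 6 of the 10 class II genes exceeded LK by 2-fold or more in LSK cells, as did 19.9% of 13016 genes. These were Cd74, H2-Aa, H2-Ab1, H2-Eb1, H2-Ob and Ciita. H2-Ob fell below 2-fold with size factors (log2 ratio 0.86) and with every cell weighted equally (0.67). None of the 10 was lower by 2-fold or more, against 3.73% of genes. The median log2 ratio was 1.52 over the 10 genes and 0.34 over all genes measured. Against TBM, 0 of the 10 were at least 2-fold higher in LSK (36.9% of genes) and 6 were at least 2-fold lower (13.1% of genes), with a median of -2.10 against 0.67 over all genes. For LK over TBM, 0 of the 10 were higher by that measure (27.3% of genes) and 8 were lower (16.8% of genes), with a median of -4.57 against 0.37. H2-DMa and H2-DMb1 were the 2 that were not at least 2-fold lower in LK. These comparisons share libraries, so they are not independent of each other.

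How many cells carried these transcripts differed with the gene. Cd74 UMIs were seen in 373 LSK cells (35.0%), 113 LK cells (3.26%) and 2268 TBM cells (53.8%). TBM cells are shallower, so each cell was also thinned to 2000 UMIs, which left out 9 LK and 1288 TBM cells below that depth. Cd74 was then seen in 18.1% of LSK cells (15.8% to 20.5%), 1.30% of LK cells (0.952% to 1.74%) and 32.3% of TBM cells (30.6% to 34.1%). H2-DMa was the most widely seen member in the progenitor gates, in 85.2% of LSK and 84.3% of LK cells, against 29.7% of TBM cells. Thinned, these shares were 36.8%, 33.3% and 18.4%. H2-Ab1 was seen in 58.3% of LSK and 42.4% of LK cells, and in 21.2% and 9.36% once thinned, against 35.0% of TBM cells and 21.4% once thinned.

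A background for the share of Cd74 comes from cells in which class II is not anticipated. LK cells with at least 50 UMIs of the granule genes Mpo, Elane, Ctsg, Prtn3 and Ms4a3, a signature of granulocyte-monocyte progenitors, numbered 1970 with a median of 18455 UMIs. Cd74 was seen in 1.37% of them (0.905% to 1.99%), at 1.04 CPM, and Ciita in none, an upper limit of 0.187% by the exact interval. The same signature marked 36 LSK cells with a median of 22879 UMIs, where Cd74 was seen in 16.7% (6.37% to 32.8%) at 9.18 CPM (3.96 to 18.1). The 35.0% of all LSK cells with Cd74 (32.1% to 37.9%) lies above both, at less depth, but its interval overlaps that of the 36 LSK cells. H2-DMa was seen in 91.3% of the 1970 LK cells and 97.2% of the 36 LSK cells, above its shares of all LK and LSK cells, so no background for it comes from them. H2-Ab1, too, behaved otherwise than Cd74 in the 1970 LK cells, with 1353 UMIs in 45.2% of cells (37.1 CPM), beside 38 UMIs of Cd74 and 52 of H2-Aa.

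The Cd74 UMIs of LSK were concentrated in few cells. The cell with most held 468 of 2856 UMIs (16.4%), the 10 cells with most held 48.4%, and the 12 cells with most held at least 50%. In LK the top cell held 41 of 386 UMIs (10.6%) and 13 cells held at least 50%. In TBM the top cell held 563 of 60619 UMIs (0.929%), and it took 300 cells to reach 50%. In LSK the top cell share was 17.6% for H2-Eb1, 11.9% for H2-Aa and 11.2% for H2-Ab1, and 12.5% for H2-DMb2, which is 4 of 32 UMIs. Of the 10 genes H2-DMa had the smallest top cell share in LSK, at 0.910%, and needed the most cells to reach 50%, at 244. It was thus spread far more evenly than Cd74, which had a similar count. Both measures depend on the number of UMIs, which was 2638 for H2-DMa, 350 for H2-Oa and 28 for Ciita in LSK. Genes of such different counts are not ranked by evenness here. H2-Ab1 in LK was also spread over many cells, with 0.404% in the top cell and 424 cells needed to reach 50%.

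**Figure D2:**
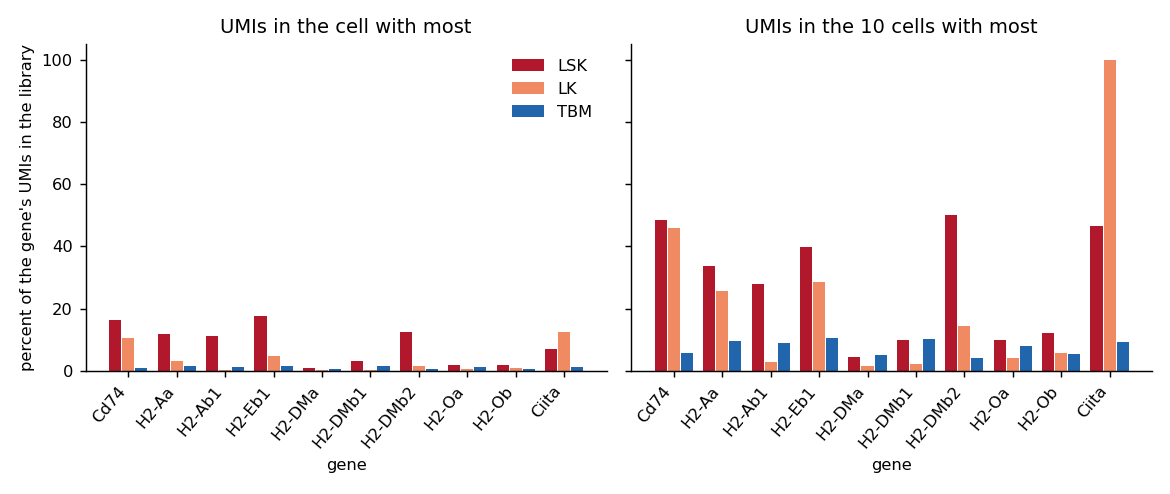
Percent of each gene's UMIs that the cell with most (left) and the 10 cells with most (right) held, in LSK, LK and TBM. In LSK the 10 cells with most held 48.4% of Cd74 and 4.62% of H2-DMa. Ciita in LK had 8 UMIs in 8 cells, so its 100% is a count of 8.

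Of the LSK cells, 4 had at least 50 UMIs of Cst3, abundant in dendritic cells, or of Jchain, a plasma cell gene, a rule added after the top cells had been seen. The first of them held 468 Cd74, 147 H2-Aa, 180 H2-Ab1 and 114 H2-Eb1 UMIs, with 273 Cst3, 4 Xcr1 and no Kit UMI. The second held 439 Cd74 and 204 H2-Ab1 UMIs, with 300 Cst3, 16 Ccr2 and 4 Kit UMIs. The third held 141 Cd74 and 240 Cst3 UMIs, and the fourth 99 Cd74, 21 Cd79a and 2064 Jchain UMIs with no H2-Aa. Together they held 40.2% of the Cd74 UMIs of LSK. Without them Cd74 stood at 145 CPM in LSK cells and 7.74 CPM in LK cells, a log2 ratio of 4.23 (4.07 to 4.39), and H2-Aa at 75.9 and 5.79 CPM, a ratio of 3.71 (3.52 to 3.91).

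Within LSK, Cd74 and the chain genes were highest in cells with Procr and without Flt3. Procr encodes EPCR, a surface protein of stem cells, and Flt3 encodes the receptor of a cytokine that acts on multipotent and lymphoid-primed progenitors. At least 1 UMI of a gene counted as carrying it, which gave 237 cells with Procr without Flt3, 192 with both, 319 with Flt3 without Procr and 319 with neither. The stem cell genes Mecom and Hlf followed the split, at 121 and 143 CPM in the cells with Procr without Flt3, against 47.4 and 90.5 CPM in those with Flt3 without Procr. Cd74 stood at 600 CPM in the cells with Procr without Flt3 (568 to 633), 106 in those with both, 180 in those with neither and 175 in those with Flt3 without Procr (162 to 188). The log2 ratio of Procr without Flt3 over Flt3 without Procr was 1.78 (1.64 to 1.91). Single cells weighed heavily here: 1 cell held 68.2% of the Cd74 UMIs of the class with Flt3 without Procr, and another 33.7% in the class with Procr without Flt3. Both are among the 4 cells above, and without those 4 the levels were 399 CPM (373 to 427) and 55.7 CPM (48.6 to 63.6), a log2 ratio of 2.84 (2.63 to 3.06). The 9 conventional dendritic cell markers summed to 550.0 CPM in cells with Procr without Flt3 (5 of 9 with a UMI, most of it Cst3 at 544 CPM) and to 724 CPM in those with Flt3 without Procr (7 of 9, Cst3 at 499.8 CPM), a list that includes Flt3. Itgax had 0 and 5 UMIs in these classes and Cd209a 0 in both. The 8 B cell markers summed to 32.3 CPM and 49.2 CPM, with Ms4a1 at 0 UMIs in both and Cd79a at 0 and 27 UMIs. Early lymphoid lists differed more: the 6 pro-B and pre-B markers summed to 9.22 CPM in cells with Procr without Flt3 (4 of 6 with a UMI) and 373 CPM in those with Flt3 without Procr (6 of 6). The 6 lymphoid-primed markers, which include Flt3, summed to 131 CPM (4 of 6) and 712 CPM (6 of 6) in the same order. Both lists hold Dntt, the enzyme that adds bases at joined receptor genes, at 5.53 and 329 CPM. The part of these markers in the result was not tested.

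H2-Aa and H2-Eb1 followed Cd74. Without the 4 cells, H2-Aa stood at 160 CPM in cells with Procr without Flt3 (144 to 178) and at 53.2 in those with Flt3 without Procr (46.2 to 60.9). H2-Eb1 stood at 73.2 CPM (62.2 to 85.5) and 28.4 CPM (23.3 to 34.2) in the same order. H2-Ab1 differed less, with 164 CPM (147 to 182) and 115 CPM (105 to 126), a log2 ratio of 0.51 (0.30 to 0.71). H2-DMa did not differ beyond counting error, with 216 CPM in cells with Procr without Flt3 and 233 in those with Flt3 without Procr, a log2 ratio of -0.11 (-0.27 to 0.05). H2-DMb1 was modestly higher, at 78.3 and 58.0 CPM (log2 ratio 0.43, 0.14 to 0.73).

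The beta chain of H2-DO ran the other way. H2-Ob stood at 11.1 CPM in cells with Procr without Flt3 (7.12 to 16.5), against 38.6 in cells with Flt3 without Procr (32.7 to 45.3), a log2 ratio of -1.80 (-2.48 to -1.17). The pro-B and pre-B and the lymphoid-primed markers above were higher in the same cells with Flt3, and their part in the result was not tested. Cells with both genes were at 32.8 CPM and cells with neither at 18.3. H2-Oa, its partner chain, did not share this pattern, with 27.3 CPM (20.8 to 35.2) and 30.4 CPM (25.2 to 36.4). Ciita had 10 UMIs in the cells with Procr without Flt3 and 6 in those with Flt3 without Procr, or 4.63 CPM (2.22 to 8.52) and 1.53 CPM (0.563 to 3.34), and the interval of the log2 ratio spans 0 (-0.01 to 3.34). Over all cells of the 2 classes, 3 of the 10 class II genes were at least 2-fold higher in Procr without Flt3 (5.74% of 10297 genes), which were Cd74, H2-Aa and Ciita. H2-Ob was the only 1 at least 2-fold lower (2.88% of genes). The 10 genes had a median log2 ratio of 0.63, beside 0.03 over all genes measured. Ciita rests on 12 and 8 UMIs in this count. Without the 4 cells H2-Eb1 passed 2-fold, too, with a log2 ratio of 1.37 against 0.95 over all cells. H2-DMb2 was then more than 2-fold lower (-1.56), on 3 and 16 UMIs, with an interval that spans 0.

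The levels also followed the number of Procr and Flt3 UMIs in a cell. Without the 4 cells, LSK cells with no Flt3 held 113 CPM of Cd74 with 0 Procr UMIs, 251 with 1, 557 with 2 and 747 with 3 or more (660.0 to 843). H2-Aa in the same bins stood at 60.1, 113, 212 and 271 CPM. Cells with no Procr held 49.95 CPM of Cd74 with 1 Flt3 UMI, 68.3 with 2 and 55.0 with 3 or more, so Cd74 did not climb with Flt3. H2-Ob did, from 18.3 CPM with neither gene to 27.8 with 1 Flt3 UMI, 35.4 with 2 and 52.3 with 3 or more (41.3 to 65.4). The bins of Procr hold 134, 58 and 44 cells, and those of Flt3 hold 138, 73 and 107. Depth was lower where Procr was high, with a median of 7476 UMIs per cell at 3 or more Procr UMIs and 13187 at 3 or more Flt3 UMIs.

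**Figure D3:**
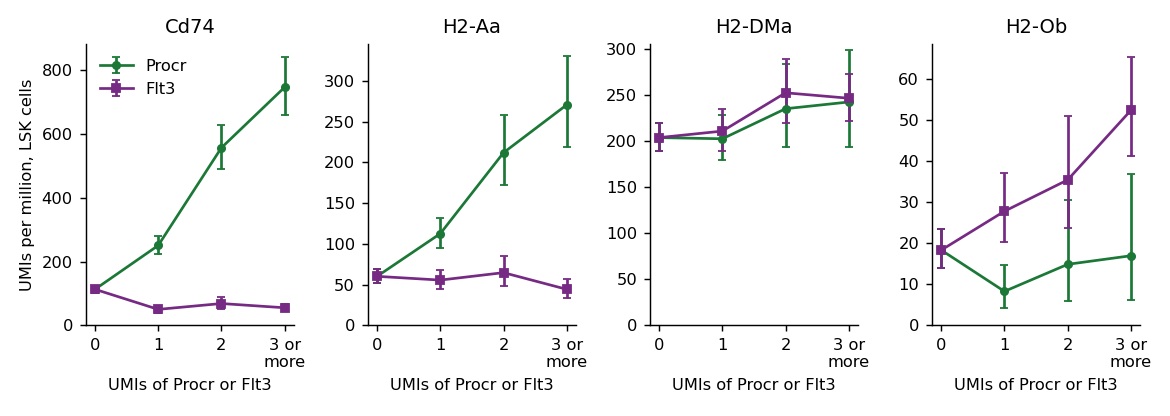
Level in CPM of Cd74, H2-Aa, H2-DMa and H2-Ob in LSK cells binned by UMIs of Procr (cells without Flt3) or of Flt3 (cells without Procr), without the 4 cells rich in Cst3 or Jchain, with 95% counting intervals and linear axes from 0. Cd74 climbs with Procr to 747 CPM, H2-Ob climbs with Flt3 to 52.3 CPM, and H2-DMa stays between 203 and 253 CPM.

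In LK, too, Cd74 was highest in cells with Procr without Flt3, at lower levels. Cd74 stood at 95 CPM (78.4 to 114) in the 105 LK cells with Procr without Flt3, 29.2 in the 58 with both, 9.96 (8.24 to 11.9) in the 776 with Flt3 without Procr and 3.70 in the 2522 with neither. The 105 cells, 3.03% of LK, held 29.5% of its Cd74 UMIs, and 1 cell held 22.8% of those, against 34.7% in 1 cell for Flt3 without Procr. A class shares only its Procr and Flt3 UMIs between the gates, and other markers differed. With Procr without Flt3, Mpo stood at 423 CPM in LSK cells and 4909 CPM in LK cells. Mecom stood at 121 and 21.7 CPM there, and Hlf at 143 and 59.2 CPM. With Flt3 without Procr, Mpo stood at 603 and 6173 CPM. The part of these differences in the Cd74 levels was not tested. In the class with Procr without Flt3, Cd74 in LSK still exceeded LK, with 399 CPM in LSK without the 4 cells and 95 CPM in LK, a log2 ratio of 2.07 (1.79 to 2.37). For Flt3 without Procr the levels were 55.7 CPM in LSK cells and 9.96 CPM in LK cells, a ratio of 2.48 (2.15 to 2.82). H2-DMa did not differ beyond counting error in that class, at 233 CPM in LSK cells and 245 CPM in LK cells (-0.07, -0.18 to 0.04). H2-Ob stood at 38.6 CPM in LSK cells and 14.8 CPM in LK cells in that class, and at 11.1 and 17.5 CPM in the class with Procr without Flt3, where the interval of the ratio spans 0 (-1.56 to 0.26).

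H2-Ab1 departed from H2-Aa most where class II was lowest. For each H2-Aa UMI there were 1.02 H2-Ab1 UMIs in LSK cells with Procr without Flt3 once the 4 cells were left out, and 2.17 in those with Flt3 without Procr. In LK there were 2.10 in cells with Procr without Flt3, 7.33 in those with Flt3 without Procr and 11.5 in those with neither. In TBM the number stayed between 0.985 and 1.10 in the pooled cells of each of the Cd79a, Siglech, Itgax and Ccr2 classes described below, once cells rich in neutrophil or globin transcripts were left out. It did not hold in every part of the Cd79a classes. The 130 of these cells with Vpreb1 or Igll1, described below, held 249 H2-Ab1 and 124 H2-Aa UMIs. H2-Ab1 stood at 38.7 CPM (36.7 to 40.8) in the 2522 LK cells with neither gene, where H2-Aa had 3.37 CPM and H2-Eb1 1.41.

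Co-detection shows which of these genes met in 1 cell. Of the 373 LSK cells with Cd74, 327 (87.7%, 83.9% to 90.8%) also held a UMI of H2-Aa, H2-Ab1 or H2-Eb1, against 59.9% (56.2% to 63.6%) of the 694 LSK cells without Cd74. The shares in LK were 77.9% with Cd74 and 42.8% without it, and in TBM 59.7% and 26.3%. Thinned to 2000 UMIs the LSK shares were 65.3% (58.1% to 72.0%) with Cd74 and 23.6% without it. All 4 of Cd74, H2-Aa, H2-Ab1 and H2-Eb1 were found together in 111 LSK cells (10.4%), 27 LK cells (0.780%) and 803 TBM cells (19.0%). Cells differ in depth, which enters these shares, so the counts are a description.

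By pairs, counted over all UMIs, Cd74 and H2-Eb1 met in 164 LSK cells, where the product of their shares gives 80.1. Cd74 and H2-Aa met in 231, against 124 from the product, Cd74 and H2-Ab1 in 266, against 217, and Cd74 and H2-DMb1 in 192, against 185. Depth moved these counts. At 2000 UMIs per cell Cd74 met H2-Eb1 in 50 cells, against 13.6 from the product, H2-Aa in 79, against 25.5, H2-Ab1 in 83, against 40.9, and H2-DMb1 in 34, against 24.2. Cd74 and H2-Ob met in 70 cells over all UMIs, below the 79.7 from the product, but in 14 once thinned, above the 9.95 from the product, so the direction turned with depth. The 2 chains of H2-DO met in 71 cells over all UMIs, against 57.1. In LK, Cd74 met H2-Eb1 in 41 cells against 2.64, and H2-Aa in 56 against 5.22. Ciita was met by Cd74 in 13 of its 25 LSK cells, 1 of its 8 LK cells and 271 of its 281 TBM cells.

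In TBM the cells with Cd79a were split by Vpreb3, and the others by Siglech, Itgax, Ccr2, Vpreb3 and Ly6g, in that order. Cd79a encodes a signalling chain of the B cell receptor, Vpreb3 is expressed in immature B lineage cells, Siglech marks plasmacytoid dendritic cells, Itgax encodes CD11c of dendritic cells and Ccr2 is a chemokine receptor of monocytes. The classes held 587 cells with Cd79a without Vpreb3, 1104 with Cd79a with Vpreb3, 39 with Siglech, 23 with Itgax and 494 with Ccr2. For background there were 921 cells with Ly6g, a gene of neutrophils, which are not known for class II. Neutrophil and red cell RNA was frequent: 206 of the 587 cells with Cd79a without Vpreb3 had at least 5% of their UMIs from S100a8, S100a9 and globin genes, against 32 of the 1104 with Vpreb3. All 8 B cell markers had UMIs in both Cd79a classes, and summed to 1913 CPM without Vpreb3 and 6336 CPM with it. The 7 plasmacytoid dendritic markers, all present, summed to 8402 CPM in the Siglech class, and the 6 monocyte markers, all present, to 5449 CPM in the Ccr2 class. In the Itgax class 7 of 9 conventional dendritic markers had UMIs (4361 CPM), beside 6 of 6 T and NK cell markers (2790 CPM).

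The Cd79a classes held 80.6% of the Cd74 UMIs of TBM. Over all cells, Cd74 stood at 6212 CPM without Vpreb3 (6124 to 6301) and at 8112 with it (8021 to 8205), a log2 ratio of -0.38 (-0.41 to -0.36). Once cells with at least 5% S100a8, S100a9 and globin UMIs were left out, the direction turned, with 11289 CPM in 381 cells without Vpreb3 (11127 to 11453) and 8805 in 1072 with it (8705 to 8906), a log2 ratio of 0.36 (0.33 to 0.39). Over all cells, those rich in S100a8, S100a9 and globin UMIs included, cells without Vpreb3 fell mostly into a high and a low group. The 587 cells without Vpreb3 held 18967 Cd74 UMIs, and the 381 of lower neutrophil and globin RNA held 18574 of them. The cells rich in that RNA thus held few Cd74 UMIs, and their share of the low group was not counted. Of the 587 cells without Vpreb3, 305 had at least 20 Cd74 UMIs, 10 had 5 to 19 and 272 had fewer, and of the 1104 with it, 459 had at least 20, 131 had 5 to 19 and 514 had fewer. In the 381 and 1072 cells of lower neutrophil and globin RNA all 10 genes were higher without Vpreb3, with log2 ratios between 0.20 for H2-Ob (0.01 to 0.38) and 1.37 for H2-DMb1 (1.06 to 1.68), whereas over all cells H2-DMb1 (0.64) and H2-DMa (0.05) were. The part of that RNA in the result was not tested. Over all cells the next classes were lower in Cd74, with 3490 CPM in Siglech cells (3275 to 3715), 4528 in Itgax cells (4145 to 4936) and 2231 in Ccr2 cells (2184 to 2279). The background was 78.5 CPM in Ly6g cells.

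By share of cells, Siglech stood with the Cd79a classes, and Itgax and Ccr2 below them. Thinned to 1000 UMIs, Cd74 was seen in 56.6% of cells with Cd79a without Vpreb3, 66.0% of those with it, 59.0% of Siglech cells, 25% of Itgax cells and 27.1% of Ccr2 cells. The background share was 8.61% in Ly6g cells. Unthinned, the shares were 71.6% in cells with Cd79a without Vpreb3 and 76.4% in those with it, at medians of 2372 and 2013 UMIs, against 31.3% in Ly6g cells at a median of 3933. In Ly6g cells 1 of 921 had 5 or more Cd74 UMIs.

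Cd74 was concentrated in few cells of the Itgax and Ccr2 classes and less so in the Siglech class. In the Itgax class 14 of 23 cells had no Cd74 UMI, 3 cells had at least 20 and held 98.3% of the UMIs, and the top cell held 48.3%. Of the 30 TBM cells with an Itgax UMI, 25 had only 1, so the class rests on single UMIs. In the Ccr2 class 54 of 494 cells (10.9%) had at least 20 Cd74 UMIs and held 92.1% of the UMIs. The 4 TBM cells with most Cd74 all belonged to this class, with 563, 426, 417 and 402 UMIs, and they had 49, 21, 27 and 23 Cst3 UMIs. The fifth, with 344 Cd74 UMIs, fell in none of the named classes and had 59 UMIs of the macrophage gene C1qa. In the Siglech class 16 of 39 cells (41.0%) had at least 20 Cd74 UMIs, near the 41.6% of cells with Cd79a with Vpreb3, and the top cell held 11.2%.

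The DM and DO genes differed in which classes they were highest. Over all cells, H2-DMb2 stood at 303 CPM in cells with Cd79a without Vpreb3 (283 to 323) and 337 in those with it (319 to 356), against 53.2 in Siglech cells, 43.9 in Itgax cells and 12.4 in Ccr2 cells (9.16 to 16.5). The Ccr2 value was close to the 9.27 CPM of Ly6g cells (6.71 to 12.5). Without the cells rich in S100a8, S100a9 or globin transcripts the order of the Cd79a classes turned, with 549 CPM without Vpreb3 (514 to 586) and 364 with it (344 to 385), against 12.6 in Ccr2 cells. H2-DMb1 over all cells was at 68.5 CPM without Vpreb3 (59.5 to 78.4), 44.0 with it (37.5 to 51.3), 234 in Siglech cells (181 to 298), 184 in Itgax cells (114 to 282) and 130.4 in Ccr2 cells (119 to 142). Ly6g cells had 5.39 CPM. Without the rich cells it was at 122 CPM without Vpreb3 (105 to 140) and 47.0 with it (39.9 to 54.9), against 327 in Siglech cells (253 to 416), 193 in Itgax cells (120 to 295) and 146 in Ccr2 cells (134 to 160), so the intervals of Ccr2 cells and of cells with Cd79a without Vpreb3 overlap there. The 2 beta chain genes of H2-DM were highest in different classes on either set of cells. H2-DMa was found in all of them, over all cells at 205 CPM without Vpreb3, 199 with it, 468 in Siglech cells, 491 in Itgax cells and 260.4 in Ccr2 cells.

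H2-Ob was mostly found in the Cd79a classes, which held 93.8% of its TBM UMIs. Over all cells it stood at 128 CPM without Vpreb3 (115 to 141) and 188 with it (174 to 203), against 7.09 in Siglech cells (0.859 to 25.6), 17.5 in Itgax cells (2.13 to 63.4) and 4.66 in Ccr2 cells (2.76 to 7.36). Ly6g cells had 2.59 CPM (1.34 to 4.52), an interval that overlaps that of Ccr2 cells. Without the cells rich in S100a8, S100a9 or globin transcripts the order of the Cd79a classes turned, with 234 CPM without Vpreb3 (211 to 259) and 204 with it (189 to 220). H2-Oa reached one more class, over all cells with 93.0 CPM without Vpreb3, 98.2 with it and 78.0 in Siglech cells (48.9 to 118), against 11.4 in Ccr2 cells (8.27 to 15.3) and 1.29 in Ly6g cells. Without the rich cells it stood at 168 CPM without Vpreb3 (149 to 189) and 106 with it (95.7 to 118). Ciita stood over all cells at 40.3 CPM without Vpreb3, 51.0 with it, 10.6 in Siglech cells (3 UMIs), 26.3 in Itgax cells (3 UMIs) and 11.1 in Ccr2 cells (43 UMIs). Without the rich cells its order turned, too, with 74.8 CPM without Vpreb3 (62.1 to 89.2) and 55.3 with it (47.6 to 63.9). There was no Ciita UMI in 4637867 UMIs of Ly6g cells, for an upper limit of 0.795 CPM.

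**Figure D4:**
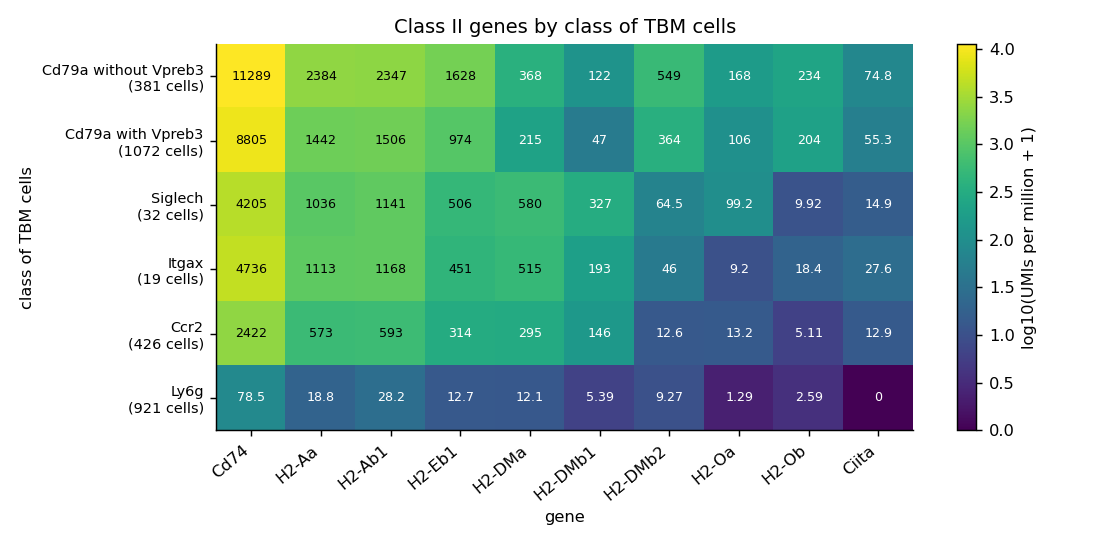
Level of each class II gene in classes of TBM cells, written in CPM and coloured by log10(CPM + 1). Cells with at least 5% S100a8, S100a9 and globin UMIs are left out of the Cd79a, Siglech, Itgax and Ccr2 classes and kept in the Ly6g class, since neutrophils are rich in S100a8 and S100a9. H2-DMb2 and H2-Ob are high in the Cd79a classes, and H2-DMb1 is highest in the Siglech class.

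Among cells with Cd79a, all 10 genes were higher in cells with markers of mature B cells, in a split chosen after the classes above had been seen. Vpreb1 and Igll1 encode the surrogate light chain of pro-B and pre-B cells, and Fcer2a (CD23) and Cr2 (CD21) mark mature B cells. Cells rich in S100a8, S100a9 or globin transcripts were left out, and 9 cells with both kinds of marker are not used here. Cd74 stood at 498 CPM in the 130 cells with Vpreb1 or Igll1 (455 to 543), 7468 in the 931 with none of the 4 (7371 to 7565) and 26881 in the 383 with Fcer2a or Cr2 (26543 to 27222). It was seen in 60.8%, 75% and 99.5% of these cells, although the median depths ran the other way, at 5448.5, 1964 and 1903 UMIs per cell. H2-Aa stood at 125, 1280 and 5126 CPM, and H2-Eb1 at 56.4, 840.5 and 3604 CPM. H2-Ab1 stood at 251 (221 to 284), 1305 and 5057 CPM, above H2-Aa in the first group. H2-DMb2 stood at 18.1 (10.7 to 28.7), 303 and 1273 CPM, and H2-DMb1 at 9.07 (4.15 to 17.2), 71.1 and 141 CPM. H2-Ob was already at 55.4 CPM in cells with Vpreb1 or Igll1 (41.7 to 72.1), and stood at 165 and 551 CPM in the later groups, while H2-Oa stood at 12.1 (6.25 to 21.1), 99.8 and 337 CPM. Ciita had 7 UMIs in the first group (7.05 CPM), and stood at 48.0 and 167 CPM in the others.

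**Figure D5:**
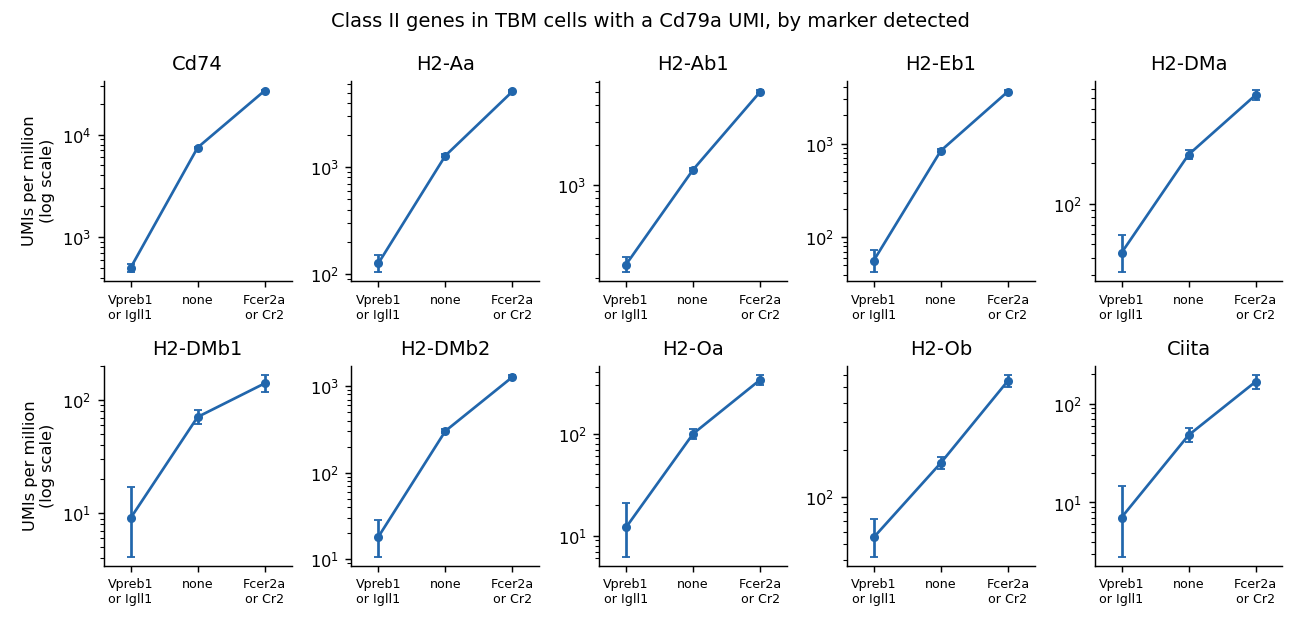
Level of each class II gene in CPM (log axes that differ by panel) in TBM cells with a Cd79a UMI, grouped by Vpreb1 or Igll1 (130 cells), none of the 4 markers (931 cells) and Fcer2a or Cr2 (383 cells), with 95% counting intervals. Every gene is lowest in the first group and highest in the last, for example Cd74 at 498 and 26881 CPM.

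Between LSK and LK cells, the other genes of the pathway differed by list. Of 8 measured genes of antigen processing and trafficking, 0 differed by 2-fold or more, with a median log2 ratio of -0.07. Of 14 genes tied to class II transcription, 2 were at least 2-fold higher in LSK and 2 lower, with a median of 0.29 beside 0.34 over all genes. Rfx5, a subunit of the factor that binds the X box, stood at 11.7 CPM in LSK cells and 4.89 CPM in LK cells, a log2 ratio of 1.27. Jak1, a kinase of interferon and other cytokine receptors, stood at 101 CPM in LSK cells and 43.7 CPM in LK cells (1.21). Irf8, a factor of dendritic cell and monocyte development, stood at 47.4 CPM in LSK cells and 260.3 CPM in LK cells, a log2 ratio of -2.46, in the direction opposite to Cd74. Ifngr1, a chain of the interferon gamma receptor, stood at 90.4 and 220.3 CPM (-1.29). Of 13 class I genes 2 were at least 2-fold higher, Nlrc5, which switches class I genes on, and H2-T23, and 1, the chaperone gene Calr, was lower, beside 19.9% of all genes higher and 3.73% lower. Of 3 measured costimulation genes, with a median of 1.92, 2 were higher, Cd86 at 6.17 CPM in LSK cells and 1.44 CPM in LK cells, and Cd274 at 5.74 and 1.52.

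Against TBM, 5 of 9 genes of antigen processing were at least 2-fold lower in LSK and none was higher, where 13.1% of all genes were lower and 36.9% higher. Ctss, the protease that trims the invariant chain, stood at 20.4 CPM in LSK cells and 254 CPM in TBM cells, and Ifi30, a lysosomal thiol reductase, at 10.4 and 151 CPM. Lgmn, an asparagine-specific protease, stood at 2.45 and 25.05 CPM, and March1, a ubiquitin ligase that turns over class II at the surface, had 3 UMIs in LSK cells and 359 in TBM cells. Of 16 genes of class II transcription 5 were lower, among them the B cell factors Pax5, with 2 UMIs in LSK cells and 456 in TBM cells, and Irf4, with 1 and 214, and 3 were higher, Rfx5, Nfya and Irf1. Of 5 costimulation genes 1 was higher and 3 lower, and of 13 class I genes 7 were higher and 0 lower. For LK over TBM the counts lower were 4 of 9 processing, 3 of 16 transcription and 4 of 5 costimulation genes, with none higher, and 4 of 13 class I genes were higher with none lower, beside 16.8% of all genes lower and 27.3% higher. Between LSK cells with Procr without Flt3 and those with Flt3 without Procr, 1 of 14 transcription genes was at least 2-fold lower, Irf8, at 25.8 and 87.7 CPM, and none was higher. Of 7 measured processing genes, 1 was higher, Ctsl, a lysosomal protease, at 55.8 and 27.8 CPM. None of 2 costimulation and 13 class I genes differed by 2-fold. Over all 10297 genes measured between these classes, 5.74% were at least 2-fold higher and 2.88% lower. Counts of 0 or 1 in such short lists are therefore not read as a difference.

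By pattern, the genes most like Cd74 were the chain genes H2-Aa and H2-Eb1, not the class II genes as a whole. H2-Ab1 came next, except across LSK cells without the 4 cells rich in Cst3 or Jchain, where Ly6a stood above it. Across the 17 classes of cells (4 LSK, 4 LK and 9 TBM), Pearson's r of log2(CPM + 10) with Cd74 was 0.99 for H2-Aa and H2-Eb1, 0.94 for H2-Ab1, 0.89 for Ciita and 0.81 for H2-DMb2. It was 0.53 for H2-Oa, 0.52 for H2-DMb1, 0.47 for H2-Ob and 0.38 for H2-DMa. Among the other genes with at least 200 UMIs, the highest were Trim5 (0.92), Filip1l (0.90), Gngt2 (0.89), Xiap (0.89), Sipa1 (0.88), Trim12c (0.88), 9930111J21Rik2 (0.87) and Btg1 (0.87). The classes share libraries and depth, so these are descriptions. Across 1066 LSK cells without the top Cd74 cell, r of log counts with Cd74 was 0.68 for H2-Aa, 0.66 for H2-Eb1, 0.48 for H2-Ab1, 0.20 for H2-DMb1, 0.08 for H2-DMa and -0.06 for H2-Ob. The highest other genes were Ly6a (0.46), which encodes Sca-1 of the gate, Mllt3 (0.40), Sult1a1 (0.39), Ifitm1 (0.38), Ftl1 (0.37), Ifitm3 (0.37), Shisa5 (0.37) and Malat1 (0.37). That set still holds 3 of the 4 cells rich in Cst3 or Jchain. Across the 1063 LSK cells without any of the 4, r was 0.67 for H2-Aa, 0.64 for H2-Eb1 and 0.44 for H2-Ab1. Ly6a stood at 0.47 there, Ifitm1 at 0.42 and Mllt3 at 0.42. Cells share 1 library and differ in depth.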

How the data were processed

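The 3 deposited tables hold the authors' counts of UMIs for every gene in every barcode, not normalized, from 10x Single Cell 3' v2 libraries per the labels' protocols. The submitters' processing notes name Cell Ranger 4.0.0 and mm10. Cells needed 200 detected genes and no more than 10% mitochondrial UMIs, and Scrublet (scanpy 1.11.5, each library alone) removed 3 LSK, 3 LK and 73 TBM cells (0.280%, 0.0866% and 1.70%), so doublets remain. Free RNA was not corrected. CPM have exact Poisson intervals, ratios conditional binomial intervals and shares Clopper-Pearson intervals, all 95% and for counting error only. Genes count as measured from 20 UMIs over both sides, and sums under 3 counts were set to a floor of 3 in counts of genes past 2-fold and in medians over genes. The ratios over all genes were tested on simulated counts with known folds. The members, lists and classes were chosen with earlier results of these data known. The granulocyte-monocyte signature cells, the rules on Cst3, Jchain, S100a8, S100a9 and globin and the B cell split were added after seeing the data. Named besides the members were the 8 genes most like Cd74 by each correlation (over classes, genes of at least 200 UMIs; over LSK cells, genes in at least 10% of cells) and the list genes with the largest ratios past 2-fold. A further TBM class and a further transcription gene are not reported here. Alternatives were no cell filter, 5% mitochondrial UMIs, doublets kept, no top cell, size factors, equal weight per cell, another UMI minimum and other thinning. Python 3.11.15, numpy 2.4.6, scipy 1.17.1, pandas 2.3.3, biopython 1.88 and matplotlib 3.10.9 were used, with GENCODE M21 positions.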

Additional observations from a re-analysis of the deposited data

How the results depend on the processing

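The log2 ratio of Cd74 for LSK over LK (4.96) was 4.58 with size factors, 4.16 with every cell weighted equally and 4.23 without the cells rich in Cst3 or Jchain. The median over the 10 genes (1.52) was 1.13, 1.16 and 1.31 under the same settings. Size factors put the median of all genes at -0.05, against 0.34 with CPM. The count of genes at least 2-fold higher in LSK was 5 or 6 under every setting run. For Procr without Flt3 over Flt3 without Procr (1.78), the Cd74 ratio was 3.43 without the top cell and 2.84 without the cells rich in Cst3 or Jchain. The top cell, with 468 Cd74 UMIs, lies in the class with Flt3 without Procr. The second, with 439, stays in the class with Procr without Flt3 at 3.43, so that setting leaves out a Cst3-rich cell from 1 class only. The ratio was 3.42 with at least 2 UMIs of a class gene and 1.40 with classes set after thinning to 2000 UMIs. For Cd79a without Vpreb3 over Cd79a with Vpreb3 in TBM (-0.38), it was -0.34 both with no filter on cells and with doublet calls kept. That ratio turned to 0.36 with equal weight per cell, 1.66 with at least 2 UMIs, 0.31 with thinned classes and 0.36 without cells of 5% S100a8, S100a9 and globin UMIs; the cause was not tested. The share of thinned LSK cells with Cd74 (18.1%) was 11.4% at 1000 UMIs and 35.0% without thinning, and co-detection with a chain gene (87.7%) was 65.3% once thinned. Removing cells rich in Cst3, Jchain, S100a8, S100a9 or globin was chosen after seeing the data. No paired analysis was possible because each group has 1 library. Counting intervals leave out the spread between animals, and depth limits rare genes such as Ciita, with 28 UMIs in LSK.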
